A study of Mus musculus with 5 samples.

Results

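Cadherins are the calcium-dependent adhesion proteins that hold neighbouring cells together, and 6 of their genes (Cdh1, Cdh2, Cdh3, Cdh6, Cdh16 and Cdh17) are described here with 3 catenin genes (Ctnna1, Ctnnb1 and Ctnnd1), in mouse liver organoids grown together with endothelial cells of the liver and in organoids cultured alone. These 9 genes were chosen by symbol, with the counts and fold changes of this same comparison already known, from the 52029 genes of the table shared by 4 libraries. All 9 were present and all 9 passed the filter on low counts, as did 15899 genes in all. The organoids (hepatobiliary organoids, HOs) are epithelial cultures that renew themselves and were started from primary liver stem/progenitor cells of wild-type mice, and the study asked how liver endothelial cells (LiECs) act on survival and proliferation of these cells. The co-cultured organoids (HOs co-cultured with LiECs) were at passage 8 with 3 libraries, and the organoids alone were at passage 1 with 2 libraries, all taken at day 10. Both kinds had the same listed medium, advanced DMEM with EGF, ECGS (an endothelial growth supplement), heparin, nicotinamide, Knock-out serum replacement, Y-27632, HEPES, GlutaMAX and antibiotics. Co-culture and passage cannot be told apart in this design, and it is not given in the sources used here whether the libraries of a group were separate cultures or whether endothelial cells were removed before RNA was isolated.

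A classical cadherin reaches across the gap between cells with its outer domains and binds catenins with its tail. Ctnnd1 holds the cadherin at the surface, Ctnnb1 (beta-catenin, which also carries Wnt signals to the nucleus) binds the tail, and Ctnna1 (alpha-catenin) links the complex to actin. Cdh1 (E-cadherin) is the cadherin of epithelia including bile ducts, Cdh2 (N-cadherin) is found in mesenchyme and in hepatocytes, Cdh3 is P-cadherin and Cdh6 was first described in kidney. Cdh17, liver-intestine cadherin, was named for its expression in rat liver and intestine, and Cdh16 is kidney-specific cadherin. Cdh16 and Cdh17 have short tails that do not bind catenins.

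Co-culture libraries M9 and M10 share 1 table with the alone libraries M11 and M12, and the 5 libraries held between 26466739 and 58853737 counts. The third co-culture library was counted with another gene annotation in a table of its own, so that its differences have no test. Levels are CPM (counts put on the same library size for all 5 libraries), and log2 fold changes compare M9 and M10 with M11 and M12. Biliary epithelial markers were high throughout, with a summed level of 26301, 20603 and 9507 CPM of total counts in M9, M10 and the third library, and of 12902 and 17165 in M11 and M12, and none of the 10 genes was at 0. Of the 10, the keratins Krt19 (1.15 ± 0.18 on the log2 scale, adjusted p = 0.0436, edgeR) and Krt7 (1.11 ± 0.15, adjusted p = 0.0303) rose in M9 and M10, while 8 of the 10 were below the mean of the organoids alone in the third library. Among endothelial markers, Ptprb, a phosphatase known to act on VE-cadherin, was at 46.1, 42.6 and 10.4 CPM in M9, M10 and the third library, against 9.86 and 9.68 CPM in M11 and M12. Cdh5 and Pecam1 had few counts. Cdh5 (VE-cadherin, the cadherin of endothelium) had 6, 5 and 19 counts in M9, M10 and the third library, against 3 and 2 in M11 and M12. Pecam1, an endothelial surface protein, had 2, 2 and 10 counts in those co-cultures, against 1 and 2 in the organoids alone.

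Of the 9 genes, Cdh2 and Cdh16 fell and the other 7, Cdh1 and the 3 catenins among them, did not pass the test. Passing means an adjusted p under 0.05 in edgeR's quasi-likelihood test over all 15899 genes, which called 2.24% of them, with 1.25% lower and 0.994% higher. The genes were chosen with the results of this comparison known, so their counts and fold changes are a description and nothing is read from their share. None of the 9 was called higher by edgeR or by limma-voom, which called 1.79% of all genes, and 1 (Ctnnd1) was by DESeq2, which called 8.26%. At an unadjusted p under 0.05 there were 3 of the 9, beside 17.5% of all genes tested. The median log2 fold change of the 9 was 0.05, beside 0.00 over all genes tested. The calls of Cdh2 and Cdh16 were both lost without M12 (log2 fold changes of -5.67 and -3.45), where 0 genes or 0.0% of all were called (1438 at an unadjusted p under 0.05), and in a fit of all 5 libraries (-5.42 and -3.35), where 2 genes or 0.0136% were. That of Cdh16 was lost without M11 too (-3.67), where 50 genes or 0.292% were called. Without M9 edgeR called 15.7% of all genes, and without M10 6.68%.

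**Figure D1:**
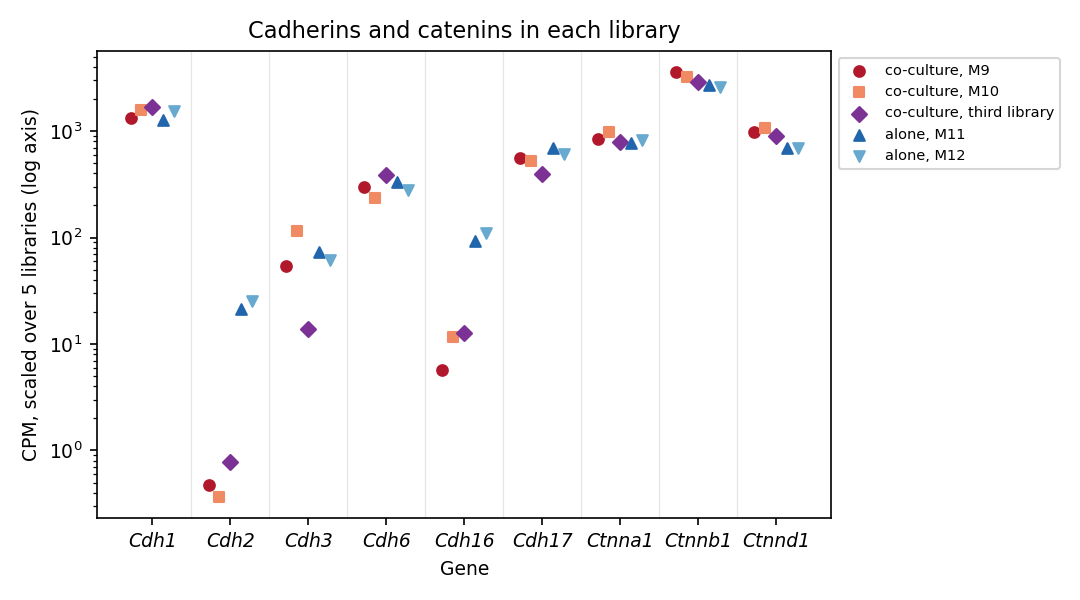
CPM of the 9 genes (log axis), 1 point per library, with the 3 co-culture libraries left of the 2 alone libraries within each gene. Cdh2 and Cdh16 stand lower in all 3 co-culture libraries, at 0.369 to 0.777 and 5.72 to 12.6 CPM, while Cdh3 is at 13.9 CPM in the third library.

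Cdh2 was at 0.472, 0.369 and 0.777 CPM in M9, M10 and the third co-culture library, against 21.5 and 25.6 CPM in the alone libraries M11 and M12. These levels rest on 15, 12 and 45 counts in the co-cultures, against 551 and 707 in the organoids alone. Every co-culture library lay far below both alone libraries, and the groups did not come near each other. The log2 fold change of M9 and M10 over the organoids alone was -5.81 ± 0.34 (SE), a level 55.9-fold lower, and 51 of the 15899 genes tested had a lower one. For the third library the log2 difference from the mean of M11 and M12 was -4.82, and as both comparisons use M11 and M12 they share their controls. In GRCm38, Cdh2 (ENSMUSG00000024304) occupies the minus strand of chromosome 18 between 16588877 and 16809246, and the antisense gene that overlaps it had 0 counts in M9, M10, M11 and M12. In bulk RNA, fewer cells that express a gene and less of its RNA per cell cannot be told apart.

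Cdh2 is also a gene of mesenchymal cells and hepatocytes, and markers of both moved in these libraries. Of 14 mesenchymal markers 8 were tested and 3 fell, Col3a1, Col6a3 and Rgs5. The summed level of the 14 was 29.6, 35.9 and 16.4 CPM of total counts in M9, M10 and the third library, against 38.4 and 97.9 in M11 and M12, and 4 of the 14 were at 0 in each co-culture library, against 0 in M11 and 1 in M12. Reln, a gene of stellate cells in liver, held most of the sum in M9 and M10, and 477 of 964 counts in the third library. Its fold change was positive (1.36 ± 0.26, adjusted p = 0.0661, edgeR). The other 13 summed to 2.39, 3.09 and 8.27 CPM of total counts in M9, M10 and the third library, against 28.3 and 84.0 in M11 and M12, so that without Reln the co-cultures lay below the organoids alone. Acta2, the actin of contractile cells, was at 0 in M9 and M10 and had 10 counts in the third library, against 9 in M11 and 86 in M12. Col1a1 had 19, 48 and 120 counts in M9, M10 and the third library, against 193 in M11 and 1023 in M12. Rgs5, a pericyte gene, was at 1.20, 0.523 and 0.0864 CPM in M9, M10 and the third library, against 10.4 and 8.99 CPM in M11 and M12. All 8 tested markers were below the alone mean in the third library, but not all were below both alone libraries. Col1a2 was at 5.13 CPM there, between M11 (4.37) and M12 (21.1). Pdgfrb was at 0.432 CPM there, between M11 (0.390) and M12 (2.21). Of 12 hepatocyte markers 8 were tested and 3 fell, Alb, Trf and Hp, and the summed level of the 12 was 310, 506 and 1920 CPM of total counts in M9, M10 and the third library, against 1045 and 1920 in M11 and M12. The hepatocyte markers were not low together in the third library. Alb (albumin) was at 0.157, 0.277 and 66.5 CPM in M9, M10 and the third library, against 17.2 and 53.4 CPM in M11 and M12, and Trf (transferrin), the largest part of the sum there and in M11 and M12, at 82.2, 120 and 1127 CPM, against 561 and 1351 CPM. Hp (haptoglobin) was at 0.535, 0.307 and 19.6 CPM in these co-cultures, against 16.8 and 136 CPM in the organoids alone. Alb and Trf thus fell in M9 and M10 but were above the alone mean in the third library. Of the 8 tested, 6 had negative fold changes and 2 positive ones, Ttr and Apoa1. Ttr was at 58.5, 114 and 231 CPM in M9, M10 and the third library, against 39.9 and 45.1 CPM in M11 and M12. Neither Ttr (1.01 ± 0.32, adjusted p = 0.188, edgeR) nor Apoa1 (2.74 ± 0.73, adjusted p = 0.136) passed. At 0 were 4, 3 and 3 of the 12 in M9, M10 and the third library and 2 in each alone library. The part of mesenchymal cells and hepatocytes in the level of Cdh2 was not tested.

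Cdh16 was at 5.72, 11.6 and 12.6 CPM in M9, M10 and the third library, against 93.4 and 110 CPM in M11 and M12, from 182, 376 and 731 counts in the co-cultures and 2397 and 3025 in the organoids alone. All co-culture libraries again lay below both alone libraries. M9 and M10 differed from each other by 0.98 on the log2 scale, more than M11 and M12 did at 0.24. M9 and M10 were 11.9-fold lower than the organoids alone, with a log2 fold change of -3.57 ± 0.36 (SE), and the third library was 7.98-fold lower than the mean of the organoids alone. Cdh16 (ENSMUSG00000031881) sits at positions 104601911 to 104624396 of chromosome 8, minus strand. Its nearest tested neighbours, Pdp2 at 2.88 kb and Rrad at 3.67 kb, were at -0.18 ± 0.35 (adjusted p = 0.852, edgeR) and -1.59 ± 0.41 (adjusted p = 0.126), and neither passed. The third library had log2 differences of -0.31 for Pdp2 and -2.88 for Rrad, beside -3.0 for Cdh16.

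Cdh17, whose protein has the same short kind of tail, had a far smaller fold change than Cdh16. It was at 562, 528 and 399 CPM in M9, M10 and the third library, against 691 and 609 CPM in M11 and M12. The co-culture levels all lay below the alone levels, as was so for 16.7% of the 14288 tested genes joined to the third library. The log2 fold change of -0.26 ± 0.15 (SE) did not pass the test, and the third library had a difference of -0.70. Cdh17 (ENSMUSG00000028217) sits at positions 11758147 to 11817895 of chromosome 4, plus strand.

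Cdh1 had the highest level of the 6 cadherins and its groups overlapped. It was at 1333, 1590 and 1673 CPM in M9, M10 and the third library, against 1270 and 1537 CPM in M11 and M12. The log2 fold change was 0.05 ± 0.18 (SE), and the third library was 0.26 above the mean of the organoids alone. Without M11 or M10 the sign of the small fold change turned (-0.08 and -0.07).

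Cdh3 varied more between co-culture libraries than between the groups. It was at 54.6, 116 and 13.9 CPM in M9, M10 and the third library, against 73.6 and 61.0 CPM in M11 and M12, so that M10 lay above and M9 and the third library below both alone libraries. Its log2 fold change was 0.33 ± 0.35 (SE), and 1 library decided it. The value was -0.30 if M10 was left out, 0.78, and then called, if M9 was, and -0.13 in the fit of all 5 libraries. The third library had a log2 difference of -2.26. Cdh3 (ENSMUSG00000061048) and Cdh1 (ENSMUSG00000000303) lie in tandem on the plus strand of chromosome 8, Cdh3 from 106510891 to 106557297 and Cdh1 from 106603351 to 106670246, with 46.1 kb between them. Their levels did not follow each other, since Cdh1 had its highest level in the third library, where Cdh3 had its lowest.

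Cdh3 and Msln, a mesothelial and ductal surface protein, were both highest in M10 and lowest in the third library. Msln was at 594, 1504 and 173 CPM in M9, M10 and the third library, against 689 and 404 CPM in M11 and M12, and was not called (0.92 on the log2 scale, adjusted p = 0.388, edgeR). It made up nearly the whole sum of the 6 mesothelial markers, of which 3 were tested and none was called (2 at most at 0 in a library). That sum was 559, 1364 and 171 CPM of total counts in M9, M10 and the third library, against 670 and 383 in M11 and M12. The other 5 summed to 0.915, 0.920 and 0.748 CPM of total counts in these co-cultures, against 1.59 and 1.51 in the organoids alone. The part of mesothelial cells in the level of Cdh3 was not tested.

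Cdh6 overlapped between the groups, at 300, 236 and 390 CPM in M9, M10 and the third library, against 335 and 279 CPM in M11 and M12. Its log2 fold change was -0.20 ± 0.19 (SE), and it was 0.01 with all 5 libraries. The third library was 0.35 above the mean of the organoids alone. Cdh6 (ENSMUSG00000039385) sits at positions 13028701 to 13173675 of chromosome 15, minus strand. None of Cdh1, Cdh3, Cdh6, Cdh16 and Cdh17 overlaps another gene in GENCODE M21.

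The fold changes of the 3 catenins were positive and below 1.5-fold in M9 and M10, and edgeR called none of them. Ctnnd1 was at 972, 1068 and 904 CPM in M9, M10 and the third library, against 695 and 690 CPM in M11 and M12. All co-culture levels lay above both alone levels, which were close to each other. In M9 and M10 the log2 fold change was 0.55 ± 0.14 (SE), 1.46-fold higher, and was called by DESeq2 and without M9 (0.61) but not by edgeR on the 4 libraries. The third library was 0.38 above the mean of the organoids alone. Ctnnd1 (ENSMUSG00000034101) sits at positions 84600071 to 84650765 of chromosome 2, minus strand.

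Ctnnb1 was at 3585, 3222 and 2899 CPM in M9, M10 and the third library, against 2729 and 2594 CPM in M11 and M12, again without overlap. Its log2 fold change was 0.34 ± 0.15 (SE), and the third library was 0.12 above the mean of the organoids alone. Over all 5 libraries the groups were higher in co-culture without overlap for 15.5% of the 14288 genes. Ctnnb1 (ENSMUSG00000006932) sits at positions 120929216 to 120960507 of chromosome 9, plus strand, and Ulk4, which overlaps it on the other strand, had 290 and 318 counts in M9 and M10 and 121 and 237 in M11 and M12, against at least 70027 for Ctnnb1.

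Ctnna1 was at 840, 988 and 786 CPM in M9, M10 and the third library, against 775 and 829 CPM in M11 and M12. The third library lay between the alone libraries, and M9 and M10 above them. The log2 fold change was 0.18 ± 0.15 (SE), and the third library had a difference of -0.03, which turned positive (0.07) when scaled by library size only. Ctnna1 (ENSMUSG00000037815) sits at positions 35118859 to 35254779 of chromosome 18, plus strand. Counting groups that did not overlap in M9, M10, M11 and M12, Ctnna1, Ctnnb1 and Ctnnd1 were higher and Cdh2, Cdh16 and Cdh17 lower, 6 of the 9 genes, beside 49.4% of all genes tested. With the third library this held for 5 of the 9, beside 32.2%.

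**Figure D2:**
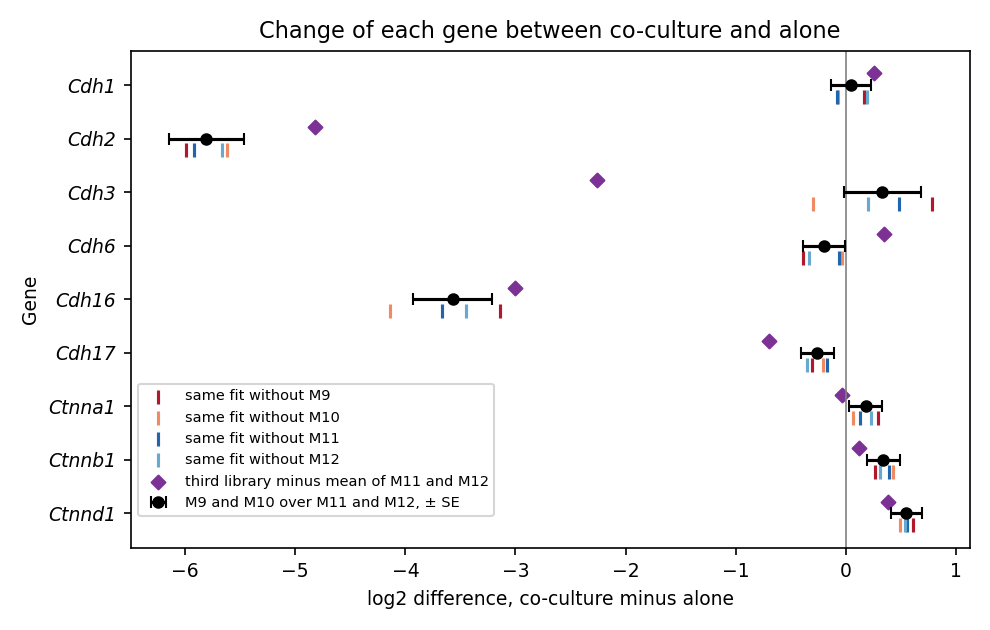
Log2 difference of co-culture over alone for each gene, where black points with bars are the fit of M9 and M10 against M11 and M12 with its standard error, ticks are the same fit without 1 library and diamonds are the third co-culture library minus the mean of M11 and M12. Cdh2 (-5.81) and Cdh16 (-3.57) lie far left of 0 under each fit shown, and the ticks of Cdh3 lie on both sides of 0.

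Levels of different genes were compared per length, as CPM per kilobase of a gene's merged exons in GENCODE M21, which span 3.79 kb in Cdh16, 4.38 kb in Cdh3, 4.47 kb in Cdh17, 4.57 kb in Cdh1, 8.07 kb in Cdh2 and 9.02 kb in Cdh6. On this scale Cdh1 and Cdh17 led the 6 cadherins, in that order, and Cdh2 was the lowest in every library. In M9 and M10 the levels were 320 ± 39.7 CPM per kb for Cdh1, 122 ± 5.34 for Cdh17, 29.7 ± 5.05 for Cdh6, 19.5 ± 9.98 for Cdh3, 2.28 ± 1.09 for Cdh16 and 0.0521 ± 0.00901 for Cdh2 (SD, n = 2). Cdh6 and Cdh3 were not separated in these libraries, as Cdh6 was the higher in M9 and the lower in M10. In the organoids alone the levels were 307 ± 41.3 CPM per kb for Cdh1, 145 ± 13.0 for Cdh17, 34.0 ± 4.37 for Cdh6, 26.8 ± 3.03 for Cdh16, 15.4 ± 2.03 for Cdh3 and 2.92 ± 0.365 for Cdh2 (SD, n = 2). Here Cdh6 and Cdh16 were close in M12, at 30.9 and 28.9 CPM per kb, but further apart in M11, at 37.1 and 24.6. In M9 and M10 Cdh16 ranked below Cdh3, and in the third library beside it, at 3.33 and 3.18 CPM per kb. Ctnnb1 was the most abundant of the 9 per length, at 656 ± 49.3 CPM per kb in M9 and M10 and 513 ± 18.5 in M11 and M12 (SD, n = 2 each).

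Cdh2 and Cdh16 together made up 0.338%, 0.593% and 0.679% of the cadherins' summed CPM per kb in M9, M10 and the third library, against 5.32% and 5.85% in M11 and M12. Cdh16 was the larger part of this share in every library. Cdh1 took 62.8%, 66.7% and 72.5% of the sum in M9, M10 and the third library, against 54.1% and 61.2% in M11 and M12, so that the co-culture shares lay above the alone shares without overlap although the CPM of Cdh1 overlapped. The share of Cdh17 was 27.1%, 22.6% and 17.7% in those co-cultures, against 30.1% and 24.8% in the organoids alone, with overlap. Cdh1 exceeded Cdh2 per length by 4984, 7600 and 3794 times in M9, M10 and the third library, against 104 and 106 times in M11 and M12. In every library the sum of the 3 catenins was above the sum of the 6 cadherins, at 954, 920 and 804 CPM per kb for the catenins and 464, 521 and 505 for the cadherins in M9, M10 and the third library, against 741 and 723 for the catenins and 513 and 549 for the cadherins in M11 and M12. Lengths were taken over all annotated exons, so a gene whose unused exons are long is understated on this scale.

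**Figure D3:**
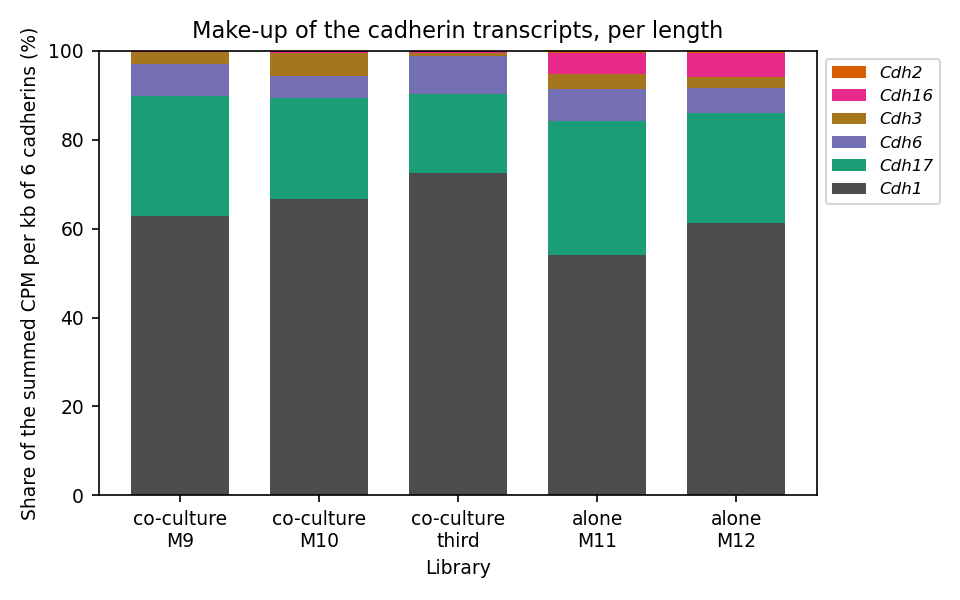
Share of each of the 6 cadherin genes in their summed CPM per kilobase of exon (percent), 1 bar per library, with 3 co-culture bars left of the 2 alone bars. Cdh1 and Cdh17 fill 89.3% to 90.1% of the co-culture bars and 84.2% and 86.0% of the alone bars, where Cdh16 has 4.80% and 5.27%.

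Among 41 other cadherin superfamily genes, 22 were tested, of which Cdhr2 rose, Cdh4 and Pcdh9 fell and 19 did not pass. Their 13.6% of calls stands beside 2.24% of all genes, and the median log2 fold change was -0.24, beside 0.00. Cdhr2, a protocadherin that links the tips of brush border microvilli, was at 14.6, 15.6 and 1.87 CPM in M9, M10 and the third library, against 1.75 and 1.89 CPM in M11 and M12. It was 3.04 ± 0.30 higher on the log2 scale (SE; adjusted p = 0.0167, edgeR), while the third library had the level of the organoids alone. Its partner Cdhr5, named after its values were seen, was at 77.1, 37.0 and 42.9 CPM in these co-cultures, against 1.99 and 12.5 CPM, and did not pass (2.96 ± 0.83, adjusted p = 0.153).

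Cdh4, R-cadherin, the classical cadherin closest to Cdh2, had 1, 5 and 0 counts in M9, M10 and the third library, against 51 and 119 in M11 and M12 (log2 fold change -5.04 ± 0.83 (SE), adjusted p = 0.0483, edgeR). Pcdh9, a protocadherin best known from neurons, had 11, 8 and 31 counts in these co-cultures, against 87 and 141 (-3.84 ± 0.52, adjusted p = 0.0313). Both were low in all 3 co-culture libraries. Their calls and that of Cdhr2 were lost without M11, without M12 and with all 5 libraries, that of Cdh4 also with limma-voom (range of its adjusted p over all fits 9.7e-07 to 0.308), and Cdh4 was at -6.46 without M10, -4.33 without M9 and -4.37 without M12. The list had 0 calls without M11 and without M12, 8 without M9 and 7 without M10.

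Of 24 listed cytoplasmic partners of the cadherins and nectin genes, 21 were tested and 1 fell, Ctnnd2, and 20 did not pass. Ctnnd2, a delta-catenin of neurons, had 1, 3 and 11 counts in M9, M10 and the third library, against 48 and 72 in M11 and M12 (-5.09 ± 0.69, adjusted p = 0.0313, edgeR), so the delta-catenin that fell was far scarcer than Ctnnd1. The median of these genes was 0.12, and 4.76% were called. Jup (plakoglobin), which takes the place of beta-catenin in desmosomes, was at 467, 463 and 347 CPM in M9, M10 and the third library, against 380 and 423 CPM, and did not pass (0.20 ± 0.15, adjusted p = 0.554), and neither did Vcl (vinculin), an actin-binding partner of alpha-catenin (0.29 ± 0.24, adjusted p = 0.605), both named after their values were seen. The call of Ctnnd2 was lost without M11, without M12 and with all 5 libraries, and it was at -5.97 without M10 and -4.55 without M9. The list had 6 calls without M9 and 3 without M10.

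Of 25 genes of cadherin cleavage, shedding and turnover, all tested, Mmp7 fell and 24 did not pass, with 4% called and a median of 0.03. Mmp7, matrilysin, a secreted protease that can cleave E-cadherin, was at 10.0, 3.93 and 7.84 CPM in M9, M10 and the third library, against 122 and 132 CPM in M11 and M12. All 3 co-culture levels were far below both alone levels, and the log2 fold change was -4.19 ± 0.46 (SE; adjusted p = 0.0203, edgeR) and -5.02 without M9. Its call was lost without M11, without M12, with all 5 libraries and with no filter on low counts, a setting that called 4.92% of all genes. Adam10, the main sheddase of E-cadherin, named after its values were seen, did not pass (0.52 ± 0.17, adjusted p = 0.199). Without M9 there were 3 calls in this list and without M10 2.

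Of 27 regulators known to repress Cdh1 or to maintain epithelial genes, transcription factors except for the splicing regulators Esrp1 and Esrp2, 24 were tested and edgeR called 0 (5 at an unadjusted p under 0.05, beside 17.5% of all genes), limma-voom 0 and DESeq2 2 higher and 2 lower. Without M9 edgeR called 4. The median was 0.10. The most abundant, Hnf4a, a regulator of hepatocyte and gut epithelium, was at 442, 326 and 328 CPM in M9, M10 and the third library, against 308 and 314 CPM in M11 and M12 (0.30 ± 0.19, adjusted p = 0.513, edgeR), and Klf5 was at 251, 350 and 140 CPM, against 264 and 271 CPM (0.16 ± 0.19, adjusted p = 0.75). Of the repressors, named after their values were seen, Twist1 was at 0.314, 0.307 and 0.0691 CPM in those co-cultures, against 1.52 and 2.21 CPM (-2.58 ± 0.52, adjusted p = 0.0769), and Zeb2 at 0.692, 0.461 and 0.397 CPM, against 1.60 and 4.71 CPM (-2.46 ± 0.68, adjusted p = 0.146). Twist1 and Zeb2 were scarce in every library. Other repressors, also named after their values were seen, did not all go this way. Snai1 (0.81 ± 0.61, adjusted p = 0.569, edgeR) and Snai3 (0.24 ± 0.48, adjusted p = 0.856) had positive fold changes but were low in the third library. Snai2 had a negative one (-2.06 ± 0.99, adjusted p = 0.37). Zeb1 (-1.12 ± 0.46, adjusted p = 0.291) was at 3.52, 1.84 and 7.24 CPM in those co-cultures, against 6.66 and 4.97 CPM. Cdx2, an intestinal factor known to switch on Cdh17 and also named after its values were seen, was at 39.8, 24.9 and 17.4 CPM in the co-cultures, against 7.56 and 16.7 CPM (1.40 ± 0.44, adjusted p = 0.185), while Cdh17 had a negative fold change.

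**Figure D4:**
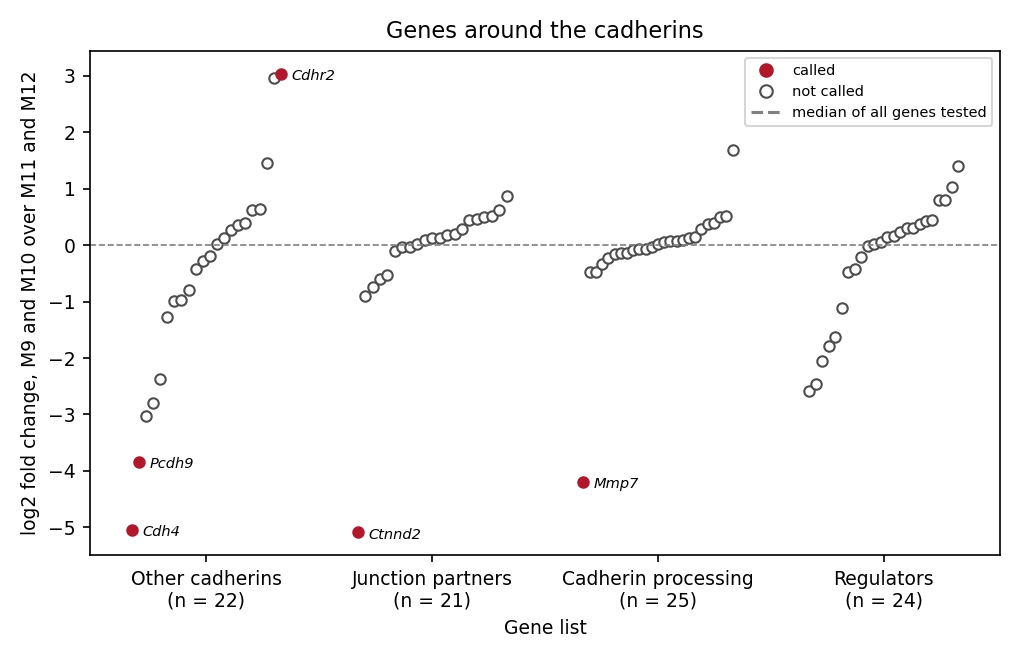
Log2 fold change of M9 and M10 over M11 and M12 for each tested gene of 4 lists, ordered by value within a list, with filled points for genes called by edgeR and a dashed line at the median of all genes tested. The called genes are Cdhr2 at 3.04, Pcdh9 at -3.84, Cdh4 at -5.04, Ctnnd2 at -5.09 and Mmp7 at -4.19.

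The genes whose pattern was most like that of Cdh2 were sought among 11565 other protein-coding genes whose mean log2 CPM was 1 or more, by the Euclidean distance between log2 CPM values centred over M9, M10, M11 and M12. They were Bex4 (distance 0.211), Rgs7bp (0.438), St8sia6 (0.559), Sirpa (0.585) and Fgfr1 (0.693). Their log2 fold changes lay between -6.33 and -5.13, save that of Rgs7bp. Rgs7bp was at 0 CPM in M9 and M10, so its fitted value of -9.96 has no measured level behind it there. Bex4 (0.0891 and 0.0857 CPM) and Sirpa (0.119 and 0.171 CPM) were also near 0 in M9 and M10. In the third library the log2 difference from the organoids alone was -5.08 for Bex4, -4.58 for Rgs7bp, -7.89 for St8sia6, -4.63 for Sirpa and -4.12 for Fgfr1. All 5 were below the organoids alone there, as were 7313 of the 14288 tested genes joined to that library. That count takes in any negative difference, however small. For scale, the -4.82 of Cdh2 in that library ranked 141 from the lowest of the 14288. The measure did not use the third library, but it did use M11 and M12, so these differences are no separate check. For Cdh17 the 5 nearest genes were Eif5, Mrpl47, Trim7, Trp53rkb and Myef2, at distances of 0.021 to 0.034 and log2 fold changes of -0.29 to -0.26. In the third library their log2 differences were -0.46, -0.43, -0.37, -0.68 and 0.10 in that order, beside -0.70 for Cdh17, so that Myef2 was not low there. These likenesses rest on 4 libraries that share 1 table and its scaling.

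The other cell types of the marker lists were checked beside these results. The 16 endothelial markers summed to 57.9, 51.3 and 18.7 CPM of total counts in M9, M10 and the third library, against 20.1 and 19.5 in M11 and M12, with 5, 5 and 6 genes at 0 in the co-cultures and 2 and 5 in the organoids alone. Of the 5 tested, 3 had positive and 2 negative fold changes, and Ptprb rose (2.17 ± 0.19, adjusted p = 0.0137, edgeR). Flt1 had 113, 69 and 54 counts in M9, M10 and the third library, against 27 and 35 in M11 and M12. It did not pass (1.28 ± 0.48, adjusted p = 0.254, edgeR), and its log2 difference in the third library was -0.29. Without Ptprb the sums were 14.6, 12.7 and 8.50 CPM of total counts in M9, M10 and the third library, against 10.6 and 10.3 in M11 and M12, and its call was lost without M11, without M12 and with all 5 libraries. Clec4g, a sinusoidal endothelial lectin, was at 0 in all 5 libraries. The 7 macrophage markers summed to 313, 276 and 430 CPM of total counts in M9, M10 and the third library, against 682 and 586, and 2 of the 4 tested, Lyz2 and Cd14, fell. Cd14 held most of these sums, and the other 6 summed to 36.2, 57.3 and 85.7 CPM of total counts in M9, M10 and the third library, against 43.1 and 36.1 in M11 and M12. Csf1r (0.47 ± 0.28, adjusted p = 0.463) and Cd68 (0.79 ± 0.35, adjusted p = 0.324) had positive fold changes and did not pass. At 0 were 2, 2 and 4 of the 7 in those co-cultures and 2 in each alone library. The part of endothelial cells and macrophages in the levels of the cadherins was not tested.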

How the data were processed

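Per the labels' protocols, RNA was extracted with PicoPure and sequenced from stranded total RNA libraries after depletion of ribosomal RNA. Trimmomatic 0.38, FastQC 0.11.7, HISAT2 2.1.0, StringTie 2.1.3b and Bowtie2 2.3.4.1 appear in the submitters' processing notes without a role, as do GRCh37 and mm10. Counter, strand setting and annotation: not given in the sources used here. The authors deposited estimated counts per Ensembl gene for 4 libraries, per the file headers and values, and whole-number counts per RefSeq gene for the third co-culture library, per the file headers. The 10 other columns of per-sample values, all normalized, were not used here, since those of the shared table cannot each be tied to 1 sample; levels per length, planned from such columns, were instead CPM over the merged exon length of GENCODE M21. The shared table repeats genes with identical values, and 1 line per gene was kept. Estimated counts were rounded.

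Genes kept by filterByExpr in the 4 libraries were tested in edgeR 4.0.16 (R 4.3.3; TMM scaling, robust quasi-likelihood fit, Benjamini-Hochberg adjustment over all genes at 0.05); each SE is the size of the log2 fold change over the square root of F. The third library was joined by symbol (30831 genes with 91.8% of its counts; mitochondrial genes, named differently, were not joined), and scaled by TMM with the 4 libraries; log2 differences use a prior count of 2. Positions are from GENCODE M21 (GRCm38). The fits were tested on simulated counts. The p-values measure only the spread between libraries, and that spread may be technical.

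The members and gene lists were chosen with earlier results of these data known. All 9 members were named; of each pathway list, the called genes, or, with no call, the 2 of highest level; of the marker lists, Cdh5 and Pecam1, and others where a result turns on them, chosen after their values were seen; and for Cdh2 and Cdh17 the 5 nearest genes. DESeq2 1.42.0, limma-voom (limma 3.58.1), other scalings and filters, fits without each library and a fit of all 5 were the alternatives. A left-out fit leaves 1 library in an arm, assumed to vary like the other group. Arvcf, on the list of partners, was not analysed here.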

Additional observations from a re-analysis of the deposited data

How the results depend on the processing

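No paired analysis was possible because the table's columns carry the group and a library number but not the replicate number of the titles. Leaving out each of the 4 libraries in turn gave 0 to 2619 genes called, 0 to 4 of the 9 cadherin and catenin genes, 0 to 8 other cadherins, 0 to 6 junction partners, 0 to 3 processing genes and 0 to 4 regulators, where the fit of 4 libraries gave 356, 2, 3, 1, 1 and 0. With all 5 libraries the counts were 2 genes in all and 0 in each list. The regulators had 0 in the fit of 4 libraries too. DESeq2 called 1314 genes in all, 5 other cadherins, 3 junction partners, 2 processing genes and 4 regulators, and edgeR without a low-count filter 1404, 5, 3, 1 and 3. A minimum of 10 counts in every library left 1 other cadherin and 0 junction partners called. Cdh4, Pcdh9 and Ctnnd2, each under 10 counts in M9 or M10, were not tested at that setting. Scaling by library size only gave 2 processing genes. Of 99 refitted fold changes of the 9 genes, 5 turned sign: Cdh1 without M11 (-0.08) and without M10 (-0.07; range with 1 library left out -0.08 to 0.19), Cdh3 without M10 (-0.30; range -0.30 to 0.78) and with all 5 libraries (-0.13), and Cdh6 with all 5 (0.01). The third library's difference of Ctnna1 turned to 0.07 when scaled by library size only. The sign of Cdh2 and Cdh16 was kept in all 11 alternative fits. Apart from the genes left untested by the minimum of 10 counts, the cause of these shifts was not tested. Cdh2, Cdh4, Pcdh9 and Ctnnd2 rest on few counts in the co-cultures, which limits how closely their low levels are known.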
